A study of Mus musculus with 4 samples.

Results

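Heat shock genes were followed through the cell types of the mouse stria vascularis (SV), 10 in all: Hspa1a, Hspa1b, Dnajb1, Hsph1, Hspb1, Hsp90aa1, Hspa8, Hsp90ab1, Hspa5 and Hspa4l. These 10 genes were chosen by symbol, and each symbol was found once in the gene list of every capture, among 27873 genes that all 4 captures share. The SV, the ion-transporting epithelium of the cochlear lateral wall, was taken from CBA/J mice at postnatal day 30 and profiled as 3 captures of whole cells (scRNA-Seq) and 1 capture of nuclei (snRNA-Seq) on the 10x Genomics Chromium platform. All mice were of this 1 strain and age, with no treatment, and each capture was a suspension pooled from several mice. Cells were freed with trypsin at body temperature, whereas nuclei were freed by a detergent lysis in the cold. The 2 groups thus differ in preparation, in the RNA compartment sampled and in the gene list used for counting, and these cannot be told apart.

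Heat shock proteins are molecular chaperones that hold, fold or disaggregate other proteins. Members of the Hsp70 family (Hspa genes) bind unfolded stretches in a cycle driven by ATP, J-domain proteins such as Dnajb1 hand them clients, Hsp110 proteins such as Hsph1 and Hspa4l exchange their nucleotide, and Hsp90 matures signalling proteins such as kinases and steroid receptors. Stress releases heat shock factor 1, which binds repeated nGAAn units in the promoters of the inducible genes. Hspa5 (BiP), by contrast, sits in the endoplasmic reticulum (ER) and is switched on by the unfolded protein response. Here 6 members were taken as inducible (Hspa1a, Hspa1b, Dnajb1, Hsph1, Hspb1 and Hsp90aa1), 3 as constitutive (Hspa8, Hsp90ab1 and Hspa5), and Hspa4l was placed in neither class.

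Promoters were read from RefSeq (GRCm38.p6) as the 250 bases before the transcription start that RefSeq gives, the first one listed where there was a choice. A promoter was found for 7 of the 10 members, and none was matched for Hspa8, Hsp90aa1 and Hsp90ab1. They were searched on both strands for a pair of heat shock units, GAANNTTC or TTCNNGAA, for 3 units in a row, GAANNTTCNNGAA or TTCNNGAANNTTC, which contain the pair, and for the ER stress element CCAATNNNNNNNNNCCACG. The pair stood in 4 of these 7 members, against 12.8% of 32851 promoters of the same length, and the ER stress element stood in Hspa5, against 0.113% of them. The 3 units in a row were found in 0.466% of promoters and in none of these 7 members. The 5 promoters with a match are given 5′ to 3′ with the matched letters in capitals, since they show the letters tied to the heat shock response and to the ER stress response. A match is a description of these letters and not evidence of binding.
Hspa1a, chr17:34972157-34972406, minus strand: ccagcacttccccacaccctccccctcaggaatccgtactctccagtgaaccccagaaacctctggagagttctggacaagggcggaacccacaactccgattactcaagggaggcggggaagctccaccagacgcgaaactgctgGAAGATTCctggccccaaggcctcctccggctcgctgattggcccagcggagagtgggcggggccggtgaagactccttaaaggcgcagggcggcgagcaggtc
Hspa1b, chr17:34959239-34959488, minus strand: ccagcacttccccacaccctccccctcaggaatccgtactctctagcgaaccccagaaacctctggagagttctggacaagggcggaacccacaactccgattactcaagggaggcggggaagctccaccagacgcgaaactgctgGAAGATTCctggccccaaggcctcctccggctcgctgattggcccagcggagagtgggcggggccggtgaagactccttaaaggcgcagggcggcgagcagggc
Hspb1, chr5:135887669-135887918, plus strand: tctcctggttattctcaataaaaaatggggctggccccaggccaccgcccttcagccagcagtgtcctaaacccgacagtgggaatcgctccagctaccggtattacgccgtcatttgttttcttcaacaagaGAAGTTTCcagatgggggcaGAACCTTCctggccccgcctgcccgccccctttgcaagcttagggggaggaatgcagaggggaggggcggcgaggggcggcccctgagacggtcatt
Hsph1, chr5:149636337-149636586, minus strand: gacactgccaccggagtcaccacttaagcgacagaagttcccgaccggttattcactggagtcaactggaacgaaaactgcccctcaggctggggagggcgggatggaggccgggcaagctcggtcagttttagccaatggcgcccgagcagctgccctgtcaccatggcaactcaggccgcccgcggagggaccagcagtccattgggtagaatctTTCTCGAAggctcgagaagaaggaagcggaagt
Hspa5, chr2:34771840-34772089, plus strand: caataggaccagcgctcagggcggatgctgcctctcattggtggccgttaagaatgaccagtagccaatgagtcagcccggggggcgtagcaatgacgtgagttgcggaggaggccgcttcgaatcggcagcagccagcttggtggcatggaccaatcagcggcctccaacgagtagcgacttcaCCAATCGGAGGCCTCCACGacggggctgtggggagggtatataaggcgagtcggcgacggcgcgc

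Counted backwards from the base before the start, the pair lay at -104 to -97 in both Hspa1a and Hspa1b, at -33 to -26 in Hsph1, and at -117 to -110 and -97 to -90 in Hspb1. The ER stress element of Hspa5 lay at -65 to -47. Before the other RefSeq start of Hsph1 the pair lay at -54 to -47. RefSeq and GENCODE place some starts differently, so 40 bases of the printed Hsph1 window and 120 of the Hspa5 window, the matched letters included, lie inside the gene bounds that follow. The promoters of Hspa1a and Hspa1b were identical at 247 of the 250 bases. On mm10 (GENCODE vM21), Hspa1a and Hspa1b are genes of 1 exon each on chromosome 17, from 34969190 to 34972156 and from 34956436 to 34959238. Hspb1, of 3 exons, lies on chromosome 5 from 135887919 to 135889563, Hsph1, of 18 exons, on chromosome 5 from 149614287 to 149636376, and Hspa5, of 9 exons, on chromosome 2 from 34771970 to 34777547. Hspa4l spans 51609 bases and 19 exons on chromosome 3, from 40744495 to 40796103. All 250 bases of its searched window, not printed here, lie inside these bounds, so its lack of a match describes those bases only.

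Of 3330 cell barcodes 3154 were kept, and of 11057 nucleus barcodes 9723. Captures 1, 2 and 3 and the nucleus capture had a median of 5054, 4938, 3878 and 1561 unique molecular identifiers (UMIs, each 1 captured RNA molecule) per barcode, and the median mitochondrial share ran from 38.6% to 45.4% in kept cells against 7.92% in kept nuclei. Pairs of captures shared 0 to 32 barcode sequences. Clusters were named from marker genes after all 10 members had been held out of the clustering. Marginal cells numbered 43, 182 and 131 in captures 1, 2 and 3, and intermediate cells 124, 405 and 390. There were 9, 23 and 6 basal cells, with 4, 13 and 13 of the spindle/root type. Capture 1 gave no spindle/root value, since a minimum of 5 cells was required. The nucleus capture held 2537 marginal, 1474 intermediate, 649 basal and 201 spindle/root nuclei. Unnamed barcodes made up 190, 667 and 778 of the 3 cell captures and 3923 of the nuclei. A cluster of 57 unnamed cells, led by the endothelial marker Cdh5, had all 6 basal markers raised but only 1 of the 7 endothelial markers. It was left out of the basal values, which rest on a cluster of 38 cells.

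The named types are described here by defining genes. Kcne1, Cldn11, Slc26a4, Dct and Tyrp1 were among the markers used for naming, so their levels are no independent check of the names. Kcne1, a potassium channel subunit, averaged 1612 UMIs per 1000000 in marginal cells and at most 222 elsewhere. Cldn11, a tight junction claudin, averaged 6095 in basal cells and at most 1295 elsewhere, and Slc26a4, which encodes pendrin, averaged 681 in spindle/root cells and at most 8.09 elsewhere. Dct, a melanin enzyme, averaged 30086 in intermediate cells, but Tyrp1, another melanin enzyme, was at 0.440 there and at 0 in the other 3 types. RNA of intermediate markers was present in other types: relative to its intermediate level, Dct stood at 23.7% in marginal, 11.7% in basal and 1.64% in spindle/root cells. The summed 12 intermediate markers, 10 or 11 of which had a UMI in each capture of intermediate cells, ran from 45054 to 55233 there, from 32966 to 36419 in marginal cells and from 26776 to 68791 in basal cells. In capture 1 the sum was 68791 in basal cells, with Dct at 5341, and 55233 in intermediate cells, with Dct at 34658. The sum is thus mostly other markers in basal cells and is no measure of intermediate RNA there. Malat1, a nuclear RNA, made up 2.02% to 2.15% of UMIs in marginal cells and 7.46% to 10.6% in intermediate cells. In captures 1, 2 and 3, only 16, 70 and 52 marginal cells had at least 1% Malat1, against 110, 389 and 378 intermediate cells. A cluster of 222 marginal cells had a median mitochondrial share of 47.8%, and the other marginal clusters had 10.6% to 32.0%. The part of RNA from other types and of these shares in the results was not tested.

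Levels below are UMIs per 1000000 UMIs of nuclear-encoded genes (CPM), summed over the cells of a type in a capture. Values are given as mean ± SD over captures. For each type, the contrast was its sums against the mean of the remaining 3 types, tested by edgeR's quasi-likelihood test with the capture as a block and Benjamini-Hochberg adjustment over 6151 genes. The 11 sums come from 3 suspensions. With the capture as a block, the replicate error starts from the spread of the differences between types from capture to capture. The quasi-likelihood fit then draws this error for each gene towards a trend over all genes tested. A small p-value thus does not rest on a gene's own spread between captures alone. Of the 10 members 9 passed the filter on low counts, and Hspa1b did not. These 9 members in 4 types gave 36 pairs of member and type, of which 9 were higher, 10 lower and 17 not called. Over all genes tested in marginal, intermediate, basal and spindle/root cells, 19.1%, 20.9%, 15.6% and 13.6% were higher. Lower were 12.9%, 18.1%, 11.4% and 8.29% in the same order. A member that is low in most types passes the filter through the type where it is high, so the member counts describe the tested members only.

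**Figure D1:**
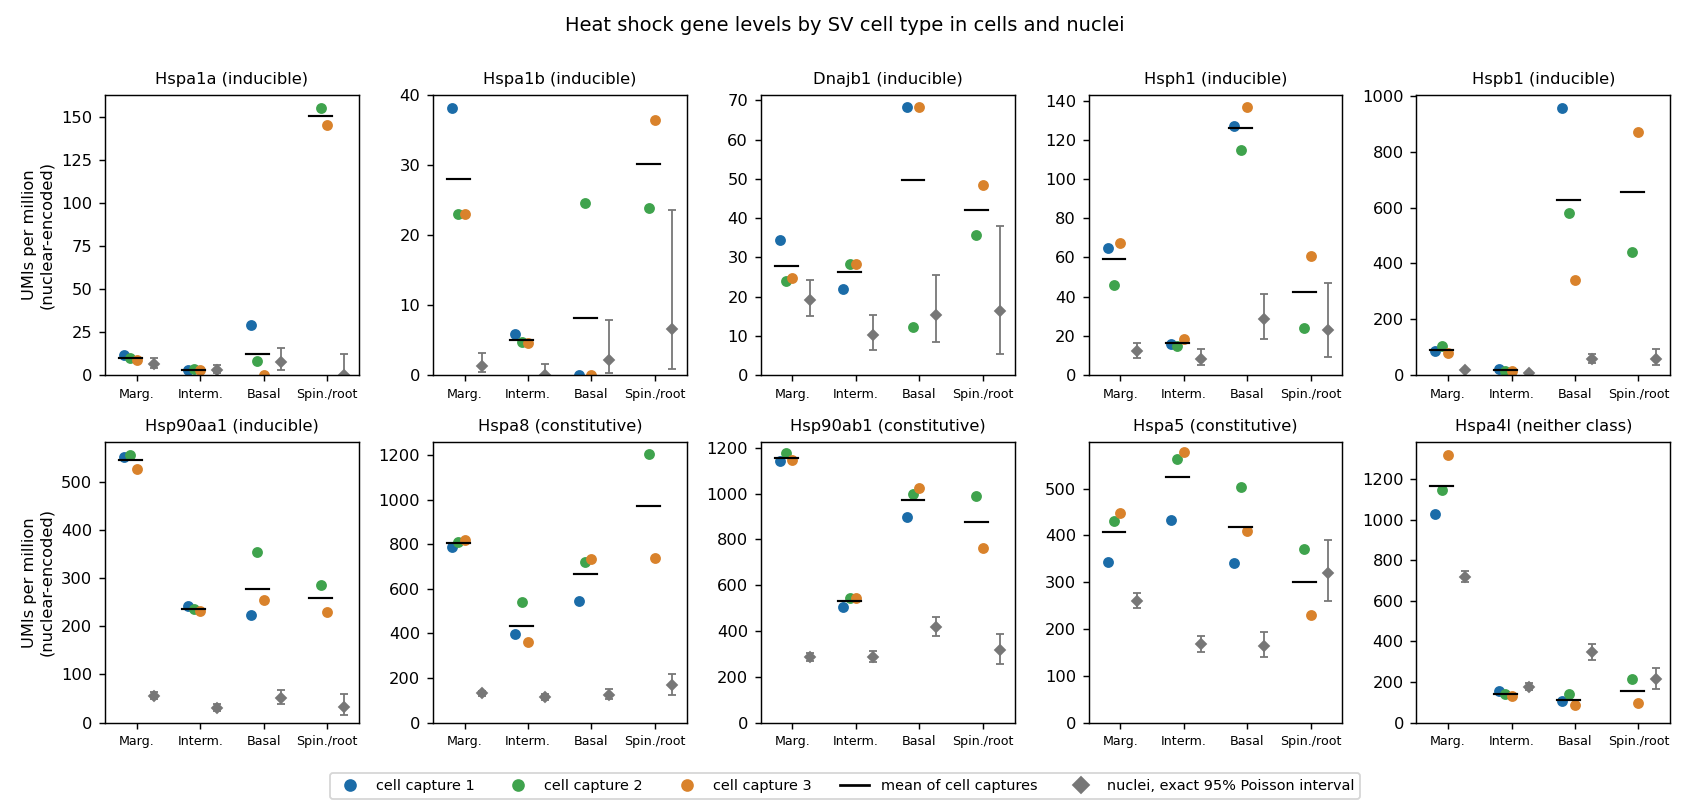
Level of each member (y axis, CPM over nuclear-encoded genes, a separate linear scale for each panel) in marginal, intermediate, basal and spindle/root cells and nuclei. Circles are cell captures, lines their mean, and diamonds the single nucleus capture with its exact 95% Poisson interval, which covers counting error only; Hspa4l in marginal cells (1029 to 1321) and Hspa1a in spindle/root cells (145 and 155) stand clear of the other types.

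Intermediate cells, the pigmented melanocyte-like cells of the SV, lay below the mean of the other types for most tested members. Here 7 of the 9 tested members were lower than in the mean of the other types, against 18.1% of all genes tested, and 1 was higher, against 20.9%. The lower ones were Hspb1, Hspa1a, Hsph1, Hspa4l, Hsp90ab1, Hspa8 and Hsp90aa1, with log2 fold changes from -4.46 to -0.52. A contrast against this mean can also be lower through a high value in another type. For Hspa4l and Hsp90aa1 the marginal values lay above all others, and the intermediate range overlapped the basal and spindle/root ranges. For Hspa1a the spindle/root values of captures 2 and 3 lay above all others. Its intermediate range, 2.64 to 3.54 CPM, lay within the basal range of 0 to 29.3. The 1 higher member was Hspa5, the ER chaperone. Dnajb1 was not called. In marginal cells, the epithelial cells that secrete potassium into endolymph, 3 members were higher (19.1% of all genes) and 1 was lower (12.9%). In basal cells 2 were higher (15.6%) and 1 lower (11.4%), and in spindle/root cells 3 were higher (13.6%) and 1 lower (8.29%). Over all genes in marginal cells, 1174 were higher and 796 lower, and without TMM scaling 1443 and 587, with the median log2 fold change of all genes at 0.16 instead of 0.03. In spindle/root cells 838 were higher and 510 lower, and with DESeq2 846 and 264.

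**Figure D2:**
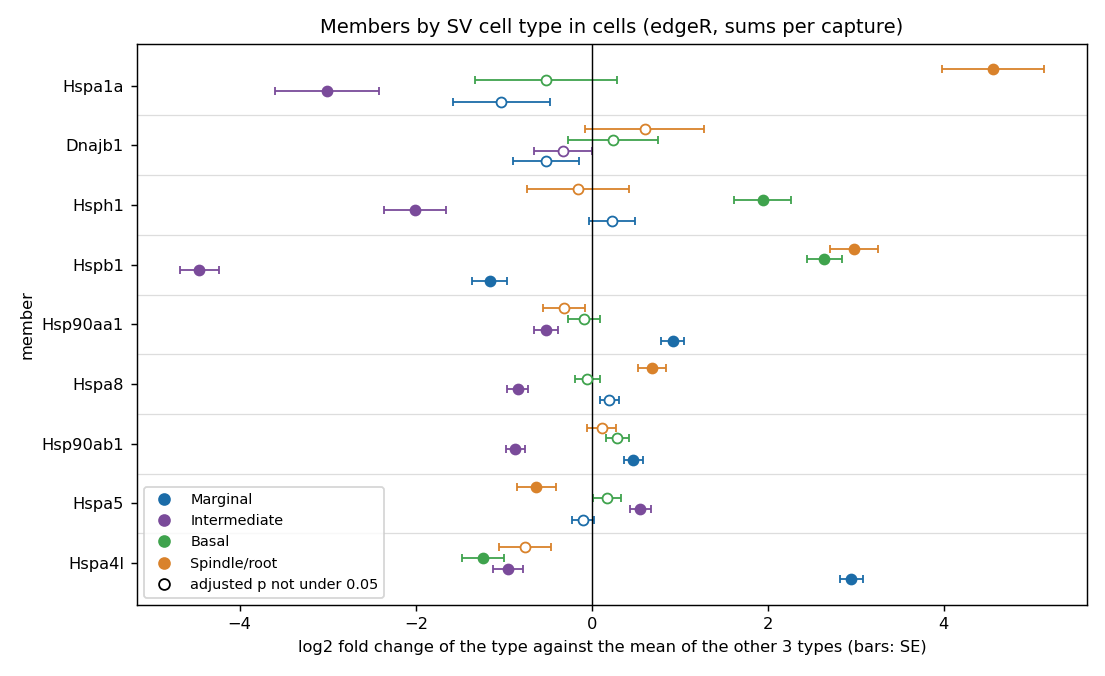
Log2 fold change of each tested member in a type against the mean of the other 3 types (x axis; bars are standard errors), from edgeR on sums per capture. Filled points have an adjusted p under 0.05; intermediate cells lie left of 0 for 7 members with filled points and right of 0 for Hspa5 alone.

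Hspa1a and Hspa1b encode the stress-inducible cytosolic Hsp70. Hspa1a stood at 155 CPM in capture 2 and 145 in capture 3 in spindle/root cells, and at 29.3, 8.18 and 0 in basal cells of captures 1, 2 and 3. In marginal cells it was at 11.4, 9.83 and 8.87, and in intermediate cells at 2.91, 3.54 and 2.64. The 4 spindle/root cells of capture 1, too few for a value of their own, held 1 UMI (17.2 CPM, 95% Poisson interval 0.435 to 95.8). The spindle/root values of captures 2 and 3 lay above every value of the other types, that of capture 1 lay below the highest basal one, and the marginal values lay above the intermediate ones. Over the 3 captures, the marginal, intermediate and basal values come from only 17, 12 and 5 UMIs. The order of these types is thus uncertain. The log2 fold change was 4.56 ± 0.58 (SE) in spindle/root cells (edgeR, adjusted p = 4.96e-11) and -3.01 ± 0.59 in intermediate cells (edgeR, adjusted p = 6.42e-06). The spindle/root value rests on few molecules, 13 UMIs in 5 of 13 cells (38.5%, exact 95% binomial interval 13.9% to 68.4%) and 12 UMIs in 4 of 13 cells (30.8%, 9.09% to 61.4%), at median depths of 5601 and 6207 UMIs. Outside the SV types, 0 of 90 erythroid cells of capture 3 held a UMI of Hspa1a, at a median depth of 10040.5 UMIs. This allows a share of cells with a UMI of up to 3.33% at 3 cells, or 4.02% by the exact interval. It sets no limit on cells that express the gene. These erythroid cells, led by globin genes, had 0.324% Malat1 against 4.68% in spindle/root cells of that capture. Their depth is thus not comparable, and they are no background for the SV types. In spindle/root nuclei Hspa1a had 0 UMIs, with an upper limit of 12.0 CPM. Hspa1a passed the filter on low counts through the spindle/root sums, which are also where it is high. Without that filter it stood at 4.32 in spindle/root cells (edgeR, adjusted p = 1.14e-13) and at -2.91 in intermediate cells (edgeR, adjusted p = 1.95e-06). With coarser clusters (resolution 0.4) it did not pass the filter, and the larger spindle/root class of 5, 41 and 28 cells in captures 1, 2 and 3 then had 14.7, 55.6 and 73.5 CPM of Hspa1a.

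Hspa1b was too low to pass the filter. It was at 38.1, 22.9 and 23.0 CPM in marginal cells, 5.82, 4.73 and 4.62 in intermediate cells, 0, 24.5 and 0 in basal cells, and 23.9 and 36.3 in spindle/root cells. Marginal values lay above intermediate values in every capture, while marginal and spindle/root values overlapped. Hspa1a and Hspa1b share 82.4% of 50-base stretches in their coding part but none of 451 in the last 500 bases of the transcript, the end that this 3′ assay reads. Reads from the shared stretches cannot be told apart by sequence, and how the counting treated such reads was not examined. Hspa1a also overlaps Gm20481 on the opposite strand, so both counts are uncertain. In marginal cells the pair had 17 UMIs of Hspa1a and 44 of Hspa1b, and in marginal nuclei 25 and 5. Summed as 1 gene, Hspa1a and Hspa1b kept the calls of Hspa1a, at log2 fold changes of 3.36 in spindle/root and -2.76 in intermediate cells. Hspa1b alone was tested in 12 of the 19 alternatives. There it was called lower in intermediate cells in 11, the exception being without capture 2 (-0.29, edgeR, adjusted p = 0.953), higher in marginal cells in 2 and higher in spindle/root cells in 1, with marginal log2 fold changes from 0.29 to 2.83.

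Dnajb1 encodes the J-domain partner of inducible Hsp70. Its levels were 34.3, 24.0 and 24.8 CPM in marginal cells and 21.8, 28.4 and 28.4 in intermediate cells. Basal cells had 68.4, 12.3 and 68.3, and spindle/root cells 35.8 and 48.4. The marginal, intermediate and basal ranges overlapped. No type was called, with log2 fold changes from -0.52 to 0.60, and this held under every one of 19 alternatives.

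Hsph1, the inducible Hsp110, was highest in basal cells, the flat cells that seal the SV towards the spiral ligament. It was at 127, 115 and 137 CPM in basal cells, 64.8, 45.9 and 67.4 in marginal cells, 16.001, 14.8 and 18.5 in intermediate cells and 23.9 and 60.6 in spindle/root cells. All basal values lay above all others, and all intermediate values below all others. In basal cells the log2 fold change was 1.94 ± 0.32 (edgeR, adjusted p = 2.03e-07) and in intermediate cells -2.01 ± 0.35 (edgeR, adjusted p = 3.88e-07). The basal values come from 13, 28 and 8 UMIs, and those of spindle/root cells from 7 UMIs in all. The lower spindle/root value, 23.9 CPM, is under the level that 3 UMIs make there. Its place above the intermediate values is thus uncertain. Basal nuclei had 28.3 CPM (95% Poisson interval 18.5 to 41.5) and spindle/root nuclei 22.9 (9.19 to 47.1), with overlapping intervals. Marginal nuclei had 12.0 (8.77 to 16.1) and intermediate nuclei 8.42 (5.07 to 13.2), which overlapped as well.

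Hspb1, the small heat shock protein Hsp27 that guards actin and holds unfolded clients, was high in basal and spindle/root cells. It reached 957, 581 and 341 CPM in basal cells and 441 and 872 in spindle/root cells. Marginal cells had 87.7, 104 and 78.0, and intermediate cells 21.8, 13.6 and 13.9. Basal and spindle/root ranges overlapped, and both lay above the marginal range, which lay above the intermediate one. The log2 fold change was 2.64 ± 0.20 in basal cells (edgeR, adjusted p = 5.09e-12), 2.98 ± 0.27 in spindle/root cells (edgeR, adjusted p = 3.44e-10), -1.16 ± 0.20 in marginal cells (edgeR, adjusted p = 3.98e-05) and -4.46 ± 0.22 in intermediate cells (edgeR, adjusted p = 1.11e-16). With the Cdh5-led cluster also counted as basal, an alternative chosen after seeing the data, the marginal value was -0.81 and was no longer called. The spindle/root level was uneven, since 1 cluster of 11 such cells held 113 UMIs (973 CPM) and the other cluster of 19 cells held 11 (101.4 CPM), capture 1 cells included. Nuclei fell likewise into a high pair and a low pair, with the intervals of spindle/root and basal nuclei overlapping, at 58.8 CPM (34.8 to 92.9) in spindle/root, 56.7 (42.3 to 74.3) in basal, 16.8 (12.9 to 21.5) in marginal and 7.09 (4.05 to 11.5) in intermediate nuclei.

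Hsp90aa1, the inducible cytosolic Hsp90, was highest in marginal cells. It was at 553, 557 and 528 CPM there, at 243, 236 and 233 in intermediate cells, at 225, 356 and 256 in basal cells and at 286 and 230.1 in spindle/root cells. The marginal values lay above all others, and the other 3 types overlapped. Marginal cells had a log2 fold change of 0.92 ± 0.13 (edgeR, adjusted p = 1.17e-09) and intermediate cells one of -0.52 ± 0.14 (edgeR, adjusted p = 0.00106). Without capture 2 the intermediate value was -0.35 and was no longer called (edgeR, adjusted p = 0.198). Of all inducible UMIs, Hsp90aa1 made up 72.3% in marginal and 77.9% in intermediate cells.

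Hspa8, the constitutive Hsc70 that also strips clathrin from vesicles, was at 789, 809 and 819 CPM in marginal cells. In intermediate cells it was at 399, 543 and 364. Basal cells had 547, 720.1 and 734, whereas spindle/root cells had 1205 and 739. The lowest basal and the highest intermediate value almost met, and the spindle/root range spanned the marginal one. Intermediate cells had a log2 fold change of -0.84 ± 0.12 (edgeR, adjusted p = 7.02e-10) and spindle/root cells one of 0.68 ± 0.16 (edgeR, adjusted p = 0.00065). The latter was 0.41 without capture 2 (edgeR, adjusted p = 0.353), which left 1 spindle/root sum.

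Hsp90ab1, the constitutive cytosolic Hsp90, was at 1144, 1179 and 1149 CPM in marginal cells and at 503, 543 and 542 in intermediate cells. Basal cells had 898, 998 and 1024, and spindle/root cells 990.2 and 763. Intermediate values were below all others and marginal values above all others. In intermediate cells the log2 fold change was -0.87 ± 0.11 (edgeR, adjusted p = 6.03e-11) and in marginal cells 0.47 ± 0.11 (edgeR, adjusted p = 0.00024). The level of Malat1 differed between marginal clusters. Among marginal cells, 1 cluster of 222 cells had 0.353% Malat1 and 1391 CPM of Hsp90ab1, and the other 3 clusters had 1.83% to 4.84% Malat1 and 668 to 1229 CPM. With barcodes under 1% Malat1 left out, an alternative chosen after seeing the data, the marginal log2 fold change was 0.26 (edgeR, adjusted p = 0.0882).

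Hspa5 (BiP), which folds proteins entering the ER, had the reverse pattern. It was at 432, 563 and 578 CPM in intermediate cells, 343, 430.2 and 449 in marginal cells, 342, 503 and 409.6 in basal cells and 369.8 and 230.1 in spindle/root cells. Within each capture the intermediate value was the highest, although the ranges of neighbouring types overlapped. The log2 fold change was 0.55 ± 0.12 in intermediate cells (edgeR, adjusted p = 7.34e-05) and -0.63 ± 0.22 in spindle/root cells (edgeR, adjusted p = 0.0277). The spindle/root call was lost without the replicate block (-0.52, edgeR, adjusted p = 0.104) and with DESeq2 (-0.58, DESeq2, adjusted p = 0.0761). The intermediate call was lost at 0.30 when 500 genes per barcode were required (edgeR, adjusted p = 0.0782) and at 0.21 with barcodes over 50% mitochondrial UMIs left out (edgeR, adjusted p = 0.142). In nuclei Hspa5 had another order, with 320.0 CPM (259.8 to 389.9) in spindle/root, 260.4 (244 to 277) in marginal, 168 (151 to 185) in intermediate and 165 (139 to 193) in basal nuclei.

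Hspa4l, an Hsp110 relative that acts as a nucleotide exchange factor, was high in marginal cells. Marginal cells had 1029, 1149 and 1321 CPM, against 154, 142 and 133 in intermediate cells, 107, 139 and 85.3 in basal cells and 215 and 96.9 in spindle/root cells. The marginal range lay far above the rest, which overlapped each other. The log2 fold change was 2.95 ± 0.13 in marginal cells (edgeR, adjusted p = 1.36e-42), -0.95 ± 0.17 in intermediate cells (edgeR, adjusted p = 1.41e-06) and -1.24 ± 0.24 in basal cells (edgeR, adjusted p = 9.73e-06). Under the 19 alternatives the marginal value stayed between 1.99 and 3.36 and the basal value between -1.98 and -0.49, called in each. The intermediate value was -0.63 without capture 2 (edgeR, adjusted p = 0.0885). Marginal nuclei were likewise highest, at 719 CPM (692 to 747), but basal nuclei came second at 345 (308 to 386), above spindle/root nuclei at 212 (164 to 271) and intermediate nuclei at 176 (160 to 195).

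Other chaperone genes were counted from lists. As for the members, a listed gene that is low in most types passes the filter through the type where it is high. Counts from these lists thus describe the tested genes only. Of 20 genes for ER chaperones and the unfolded protein response, 10 were higher and 0 lower in intermediate cells, against 20.9% and 18.1% of all genes tested, with a median log2 fold change of 0.26 against 0.03 over all genes. The higher ones included Ddit3 (CHOP), a transcription factor of that response, at 1.66 ± 0.42, Serpinh1, the collagen chaperone Hsp47, at 1.37 ± 0.18, Pdia4, a disulfide isomerase, at 1.32 ± 0.21, Sdf2l1 at 0.87 ± 0.18 and Atf4 at 0.60 ± 0.18. In spindle/root cells 0 were higher and 2 lower, against 13.6% and 8.29% of all genes, among them Serpinh1 at -1.62 ± 0.48, and marginal cells had 2 higher and 2 lower, against 19.1% and 12.9%. Hspa5 itself is not in this list.

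Of 23 other cytosolic chaperones and cochaperones that were tested from a list of 33, 8 were lower and 1 was higher in intermediate cells, against 18.1% and 20.9% of all genes, with a median of -0.34. Hspb8, a small heat shock protein, was at -2.31 ± 0.29, Dnajb2 at -1.19 ± 0.22 and Fkbp4, an Hsp90 cochaperone, at -1.07 ± 0.18. The higher one was Hspa13, an Hsp70 relative of microsomes, at 1.09 ± 0.32. In marginal cells 5 were higher and 3 lower, close to the shares of all genes (19.1% and 12.9%), with Stip1, which links Hsp70 to Hsp90, at 1.45 ± 0.28 and Fkbp4 at 0.77 ± 0.16. Basal cells had 4 higher and 3 lower, also close to all genes (15.6% and 11.4%), and spindle/root cells 6 higher and 0 lower, against 13.6% and 8.29%, among them Fkbp4 at 1.52 ± 0.29 and Cryab, the lens and muscle small heat shock protein, at 0.83 ± 0.14. Cryab was lower in basal cells, at -0.75 ± 0.13, where Hspb1 was higher.

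Of the 7 tested subunits of the TRiC chaperonin, which folds actin and tubulin, 3 were lower in intermediate cells, against 18.1% of all genes, namely Tcp1, Cct5 at -1.20 ± 0.22 and Cct7 at -0.74 ± 0.21, and Tcp1 was the 1 higher subunit in spindle/root cells, at 1.10 ± 0.33, against 13.6% of all genes. Of 5 tested mitochondrial chaperones, 0 were called in intermediate cells and 1 was higher in marginal cells, where 19.1% of all genes were, Hspa9 (mortalin), at 1.37 ± 0.18. In basal cells 1 was lower, against 11.4% of all genes, Grpel1 at -1.83 ± 0.51. Spindle/root cells had 1 higher and 1 lower, against 13.6% and 8.29%, Grpel1 at 1.71 ± 0.50 and Hspa9 at -1.44 ± 0.43. Of the heat shock factors and their regulators only Hsbp1, a binding protein of heat shock factor 1, was high enough to be tested. It was at -0.62 ± 0.19 in basal and at 0.76 ± 0.22 in spindle/root cells.

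Immediate-early genes, which rise within minutes of stimulation, were counted in the same way. Of 11 tested from a list of 22, 9 were lower and 0 higher in marginal cells, against 12.9% and 19.1% of all genes. In intermediate cells 5 were lower and 2 higher, against 18.1% and 20.9%. Basal cells had 5 higher and 1 lower, against 15.6% and 11.4%, and spindle/root cells 7 higher and 0 lower, against 13.6% and 8.29%. The 11 tested genes include ones that can pass the filter on low counts through the type where they are high. These counts therefore cannot stand for the list of 22. In spindle/root cells, where Hspa1a and Hspb1 were higher, Fos was at 3.69 ± 0.66 and Junb at 2.63 ± 0.56. They had 19 and 25 UMIs there, capture 1 cells included. In basal cells, where Hsph1 and Hspb1 were higher, Egr1 was at 3.23 ± 0.48 and Btg2 at 2.68 ± 0.49, and Klf4, the gene of this list with the largest change there, reached 828 ± 26.4 CPM. The part of these genes in the heat shock values was not tested.

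Whole cells were set against nuclei of the same type, as a description without a test, since the nuclei are 1 capture. Of the pairs of member and type, 11 had under 50 UMIs in cells and nuclei together. Among the other 29, 19 had at least 2 times the CPM in every cell capture, 1 had at most 0.5 times, and 9 were neither. Over all genes counted, 17.9%, 19.2%, 14.7% and 22.5% were at least 2 times higher in marginal, intermediate, basal and spindle/root cells, and 23.5%, 17.2%, 22.4% and 37.5% were at most 0.5 times as high. The median log2 ratio of all genes was -0.20, 0.16, -0.23 and -0.53, and that of the members counted was 2.15, 1.26, 2.15 and 1.98 in the same order.

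Hsp90aa1 was 9.46 to 9.97 times higher in marginal cells than in marginal nuclei over the 3 captures, 7.51 to 7.83 times in intermediate, 4.39 to 6.95 times in basal and 7.05 to 8.77 times in spindle/root cells. Its level in nuclei was 55.8 CPM (48.5 to 63.9) in marginal and 31.0 (24.2 to 39.2) in intermediate nuclei. Hspa8 was 6.02 to 6.25 times higher in marginal, 3.23 to 4.83 times in intermediate, 4.36 to 5.86 times in basal and 4.44 to 7.24 times in spindle/root cells. Hspb1 reached 6.02 to 16.9 times in basal and 7.51 to 14.8 times in spindle/root cells but 1.92 to 3.08 times in intermediate cells. Hsph1 was 3.82 to 5.61 times higher in marginal and 4.04 to 4.82 times in basal cells, against 1.75 to 2.19 times in intermediate cells.

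The constitutive Hsp90ab1 was 4.01 to 4.14 times higher in marginal cells, 2.15 to 2.45 times in basal cells and 1.75 to 1.89 times in intermediate cells. Its nuclear level was alike in marginal and intermediate nuclei, at 285 (268 to 303) and 287 (266 to 310) CPM, with overlapping intervals, whereas their cells did not overlap. Intermediate nuclei were uneven, with 186 CPM in 1 cluster of 1236 nuclei and 589 in the other of 238. Hspa5 was 2.58 to 3.45 times higher in intermediate cells and 1.32 to 1.72 times in marginal cells. In spindle/root cells it was 0.719 to 1.16 times its nuclear level. Dnajb1 was 2.14 to 2.78 times higher in intermediate cells and 1.25 to 1.78 times in marginal cells.

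Hspa4l departed from the other members. It was 1.43 to 1.84 times higher in marginal cells than in nuclei, 0.752 to 0.874 times in intermediate cells and 0.247 to 0.403 times in basal cells, the only pair of member and type that was at most 0.5 times in every capture. As a mean log2 ratio the basal value was -1.67, and it moved to -0.75 with barcodes over 50% mitochondrial UMIs left out and to -0.68 with the Cdh5-led cluster counted as basal. The marginal mean log2 ratio, 0.69, moved to 0.14 with mitochondrial UMIs kept in the CPM. The 317 UMIs of Hspa4l in 649 basal nuclei were spread over 212 nuclei. Marginal markers were present in these nuclei. The summed 11 marginal markers, all of which had a UMI, stood at 3794 CPM in basal nuclei, which was 30.6% of their level in marginal nuclei, and at 156 to 171 CPM in basal cells, which was 2.75% of that in marginal cells. The part of this marginal RNA in the basal value was not tested.

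**Figure D3:**
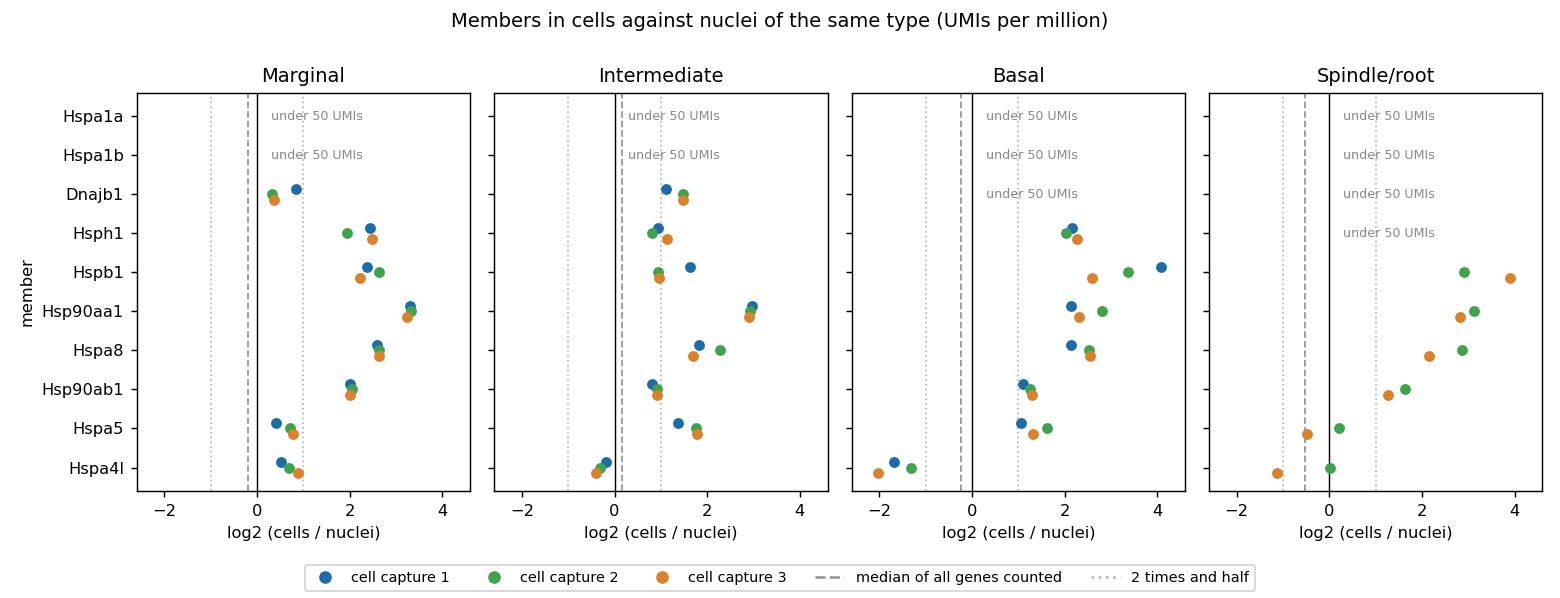
Log2 ratio of the CPM of each member in cells to that in nuclei of the same type (x axis), 1 panel per type, 1 point per cell capture. The dashed line is the median of all genes counted (-0.20, 0.16, -0.23 and -0.53 from left to right) and dotted lines mark 2 and 0.5 times; Hsp90aa1 and Hspa8 lie right of the upper dotted line in every panel, and Hspa4l lies left of 0 in intermediate and basal cells.

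The balance of inducible against constitutive members was taken as the summed UMIs of the 6 inducible genes over those of the 3 constitutive genes, again without a test. In captures 1, 2 and 3 it was 0.347, 0.316 and 0.302 in marginal cells (0.322 ± 0.0228, n = 3), 0.233, 0.182 and 0.203 in intermediate cells (0.206 ± 0.0257, n = 3) and 0.787, 0.494 and 0.370 in basal cells (0.550 ± 0.214, n = 3). In spindle/root cells of captures 2 and 3 it was 0.377 and 0.804 (0.590 ± 0.302, n = 2). Intermediate values were below all others and marginal values below all basal and spindle/root values, which overlapped. In nuclei it was 0.165 (exact 95% binomial interval 0.149 to 0.184) in marginal, 0.105 (0.087 to 0.125) in intermediate, 0.228 (0.189 to 0.273) in basal and 0.171 (0.120 to 0.238) in spindle/root nuclei. The nuclear ratio was lower than every cell capture of the same type, with intermediate nuclei again lowest and the spindle/root interval overlapping the other 3. Spindle/root cells of captures 2 and 3 differed in markers of that type, at 2434 and 630 CPM of Epyc and 394 and 969 CPM of Slc26a4. The spread of their ratio between captures and this difference in composition cannot be told apart.

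The genes behind this ratio differed between types. Hspb1 supplied 56.6% of the inducible UMIs in basal cells, 55.6% in spindle/root cells, where it was uneven between clusters, and 12.3% in marginal cells. Over the captures used, it held 260 of 459 inducible UMIs beside 853 constitutive ones in basal cells. It held 109 of 196 beside 358 in spindle/root cells and 162 of 1318 beside 4175 in marginal cells. A ratio without Hspb1 was not taken. The higher basal and spindle/root ratios are thus not shown for the inducible members other than Hspb1. With Hsp90aa1 left out, the ratio was 0.0909 ± 0.0112 in marginal, 0.0455 ± 0.00594 in intermediate, 0.416 ± 0.217 in basal and 0.468 ± 0.287 in spindle/root cells, and the nuclear ratios became 0.0829, 0.05, 0.156 and 0.130. The marginal values, 0.0836 to 0.104, then lay close to the nuclear one, and the intermediate values, 0.0394 to 0.0513, lay on both sides of it. Hspa1a and Hspa1b together were 0.0162 ± 0.00485 of the constitutive UMIs in marginal, 0.00548 ± 0.000919 in intermediate, 0.0104 ± 0.00902 in basal and 0.0873 ± 0.0248 in spindle/root cells.

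**Figure D4:**
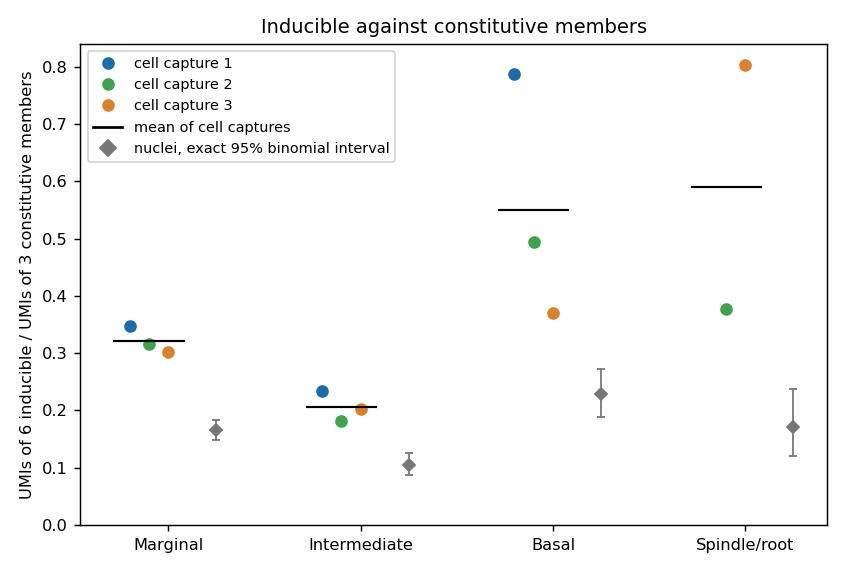
Ratio of the summed UMIs of 6 inducible members to those of 3 constitutive members (y axis, linear from 0) in each cell type. Circles are cell captures with their mean as a line, and diamonds the nucleus capture with its exact 95% binomial interval (counting error only); intermediate cells (0.182 to 0.233) lie below the other types, and each nucleus value lies below all cell captures of its type.

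Single intermediate cells were also ranked for genes that follow Hspa1a, Hspa1b, Dnajb1 and Hsph1 from cell to cell. These 4 genes together had 32, 87 and 82 UMIs in the intermediate cells of the 3 captures, 0.210 to 0.258 UMIs per cell. Over 4962 genes, the 10 with the highest lowest correlation over captures were 5031439G07Rik, Dennd5a, Paip1, Actg1, Fkbp1a, Vps35, Oxct1, Psme3, Nomo1 and Camk2n1, and that lowest r was 0.099 to 0.126. In counts as sparse as these, such values are weak and are given as a description only. Cells of a capture share its depth, and the summed genes correlated with log depth at r = 0.1495, 0.0877 and 0.181.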

How the data were processed

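The authors aligned reads to mm10 and counted UMIs with Cell Ranger 2.0.0, and deposited matrices of raw UMI counts that were not normalized. The annotation behind the longer gene list of the nucleus capture, 48816 genes against 27998, and the strand setting are not given in the sources used here, and 27873 shared genes were used, the 13 mitochondrial ones left out of CPM. Barcodes with under 200 genes and the highest Scrublet doublet scores (scanpy 1.11.5, 0.8% of barcodes per 1000 in the capture), 1, 14 and 19 cells and 978 nuclei, were left out. Cells and nuclei were clustered in Seurat 5.3.0 (resolution 0.8, 37 and 41 principal components by JackStraw) and named from fixed marker lists, and mixed clusters were split again.

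UMIs were summed per capture and type with at least 5 cells and fitted in edgeR 4.0.16 (R 4.3.3) with TMM, filterByExpr and a robust quasi-likelihood fit, and the script was tested on simulated data. Single cells entered no test. The sums of a capture come from 1 suspension, which pairs them, and after type means were removed, 15 pairs of sums from the same capture correlated at r from -0.0267 to 0.405 over 1675 genes, 10 of them over 0.1. Exact Poisson and binomial intervals (scipy 1.17.1) and limits for a count of 0, at 3 counts or as the exact upper bound, cover counting error only.

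All 10 members are named, and of the other lists up to 5 genes per type with the largest absolute log2 fold change among those with an adjusted p under 0.05. The members and lists were chosen with earlier results of these data known. The alternatives were DESeq2 1.42.0, other scalings, filters, depths and clusterings, no replicate block and each capture left out, and 2 more were added after seeing the data, a Cdh5-led cluster counted as basal and a minimum of 1% Malat1.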

Additional observations from a re-analysis of the deposited data

Results flagged for a closer look

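Hspa4l stood in opposite directions between cells and nuclei in different SV types. In every capture Hspa4l was higher in marginal cells than in marginal nuclei and lower in intermediate and in basal cells than in their nuclei. The mean log2 ratio of cells to nuclei was 1.00 higher in marginal than in intermediate cells, at 0.69 against -0.31, and 2.36 higher in marginal than in basal cells, at 0.69 against -1.67. In spindle/root cells the log2 ratio was 0.02 in capture 2 and -1.13 in capture 3, and their mean of -0.56 moved to 1.71 at resolution 0.4, 0.43 at resolution 1.2 and 0.50 with the listed genes allowed among variable genes, so its direction depended on the clustering. With mitochondrial UMIs kept in the CPM, the mean log2 ratio was 0.14 in marginal and -0.79 in intermediate cells. The difference between types was not tested, since the nuclei are 1 capture. The part of marginal RNA in basal nuclei, where the 11 marginal markers summed to 30.6% of their marginal level, was not tested.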

How the results depend on the processing

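Of the 19 pairs of member and type called by edgeR, 10 kept their direction and their call under every one of the 19 alternatives run for the test, and 2 more, Hspa1a in intermediate and in spindle/root cells, under all 17 that tested it. Hspa1a was not tested at resolution 0.4, where it failed the filter, or when summed with Hspa1b. With a filter it is tested only where it passes, in the main setting through the spindle/root sums where it is high. Its calls under these 17 thus cannot be set beside those of the 10 pairs. How many calls over all genes were kept in this way was not counted. The other 7 lost the call under at least 1 of them, namely Hspb1 and Hsp90ab1 in marginal cells, Hspa5, Hspa4l and Hsp90aa1 in intermediate cells, and Hspa5 and Hspa8 in spindle/root cells. Leaving out capture 2 ended the calls of Hspa4l and Hsp90aa1 in intermediate cells and of Hspa5 and Hspa8 in spindle/root cells. Of the 17 uncalled pairs, 5 were called under at least 1 alternative. Hspa4l in spindle/root cells turned from -0.76 to 1.40 at resolution 0.4, and the cause was not tested. Dropping the replicate block changed the call of Hspa5 in spindle/root cells and of no other member. Leaving out capture 2 or 3 left 1 spindle/root sum, which was assumed to vary like the other sums.

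Between cells and nuclei, the count of pairs at most 0.5 times as high in cells moved from 1 to 0 with doublets kept, with barcodes over 50% mitochondrial UMIs left out, with 20 principal components, with the Cdh5-led cluster counted as basal and with a fold of 3, and was 1 to 2 when each capture was left out in turn. The count at least 2 times higher in cells was 19 of 29 pairs, against 18.1% of all genes counted. With a fold of 3 it was 14 of 29 (9.47%) and with a fold of 1.5 it was 22 of 29 (26.6%). A minimum of 200 UMIs left 13 of 18 (23.8%). Under the other alternatives 16 to 21 of 27 to 30 pairs were higher, against 11.8% to 19.8% of all genes. Inducible over constitutive UMIs in marginal cells moved from 0.322 to 0.294 with doublets kept, 0.290 at resolution 0.4, 0.293 with 20 principal components and 0.0909 without Hsp90aa1. The ratio in intermediate cells moved to 0.0455 without Hsp90aa1, and in spindle/root cells to 1.28 with each barcode thinned to 1000 UMIs, where capture 2 kept 15 inducible and 27 constitutive UMIs and capture 3 kept 24 and 12. Depth limits Hspa1a, Hspa1b, Dnajb1 and Hsph1 most, with 3 UMIs worth 12.3 to 51.2 CPM in basal cells and 35.8 and 36.3 CPM in spindle/root cells.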

Other observations

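Barcodes that carried no cell type name also held heat shock RNA. In the nucleus capture, 2395 unnamed barcodes had under 1% of their UMIs from Malat1 and 44.6% of all UMIs from mitochondrial genes, against 8.02% in the 4861 nuclei of the named SV types. They had 1642 CPM of Hsp90ab1, 1167 of Hspa4l, 517 of Hspa8 and 174 of Hsp90aa1, against 304, 481, 126 and 46.5 in the named nuclei. The 1528 unnamed nucleus barcodes with at least 1% Malat1 had 44.8% mitochondrial UMIs. Their levels of these genes were lower but still above those of the named nuclei, at 1176, 894, 445 and 161 CPM. In the cell captures, 155, 503 and 586 unnamed barcodes were under 1% Malat1, with 889, 842 and 731 CPM of Hspa8 against 545, 660 and 503 in the named cells of captures 1, 2 and 3 and 585, 616 and 508 in the unnamed ones with at least 1% Malat1. Hspa5 went the other way there, with 253, 308 and 286 CPM against 390.0, 511 and 527 in the named and 490.3, 484 and 537 in the other unnamed cells. Dnajb1 was also below the named cells in every capture, at 26.0, 19.7 and 15.6 CPM against 28.8, 25.9 and 29.3. So were Hspa1a, on 0, 1 and 1 UMIs, and Hspa1b, on 0, 5 and 5. Hsp90aa1, Hsp90ab1 and Hspa4l were above the named cells in every capture, and Hsph1 and Hspb1 differed in direction between captures. These barcodes were looked at after the values had been seen, and the levels are a description without a test.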
